A study of Homo sapiens with 36 samples.

Results

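The miR-99/100 and miR-125 families are represented by 5 mature miRNAs, hsa-miR-99a-5p, hsa-miR-99b-5p, hsa-miR-100-5p, hsa-miR-125a-5p and hsa-miR-125b-5p, which were chosen by name from the 509 miRNA names listed in at least 1 of 7 tables. All 5 were listed in all 7 tables, and 205 names in total were. The tables come from small RNA sequencing of 36 human cell samples in 12 groups of 3, which the study used to ask how extra chromosomes alter the miRNAs of a cell. HCT116 is a colon carcinoma line with a modal number of 45 chromosomes, and RPE1 (modal number 46) derives from the pigmented layer of the retina and was immortalised with hTERT, the catalytic subunit of telomerase.

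An asterisk marks cells that carry the H2B-GFP transgene, a fluorescent histone. HCT116 5/4 has 4 copies of chromosome 5 and was compared with HCT116. The line was received from another laboratory, and the study's methods differ on whether its HCT116 control was too. HCT116* 3/3 c11 (3 copies of chromosome 3), HCT116* 8/3 c7 (3 copies of chromosome 8) and HCT116 18/3 c2 (3 copies of chromosome 18) were all compared with the same 3 HCT116* libraries, although HCT116 18/3 c2 has no H2B-GFP. These 3 lines are clones grown from single cells after microcell-mediated transfer of the chromosome. RPE1 5/3 12/3 has 3 copies of chromosomes 5 and 12, the latter gained spontaneously, and was compared with RPE1. RPE1* 21/3 (3 copies of chromosome 21) and RPE1* 7/3 (3 copies of chromosome 7) were each compared with a separate set of 3 RPE1* libraries. RPE1* 7/3 also gained chromosomes 9 and 12 spontaneously.

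Each table gives, for each miRNA, the authors' mean over the 3 libraries of a line and the 3 of its control, so a value describes a line and its control together. No SD can be given for such a mean, and the depth of single libraries is unknown. The means of a table summed to between 5556870 (HCT116 5/4) and 11221232 (RPE1* 7/3), over 273 to 434 listed miRNAs. A level here is the mean of a miRNA as a share of its table's summed mean, in parts per 1000000 (ppm), which counts reads and not molecules. In tables of HCT116 cells, 7 of 14 miRNAs chosen as markers of intestinal epithelium (miR-192, miR-194, miR-200 family and others) were listed, with summed levels of 2018 to 3155 ppm, against 192 to 251 ppm and 3 or 4 listed in RPE1 tables. Of 3 markers of pigment epithelium (both arms of miR-204, and miR-211), 1 or 2 were listed in each table, with 380 to 1452 ppm in RPE1 and 3.302 to 4.50 ppm in HCT116. Blood cell miRNAs, of which 1 or 2 of 7 were listed, summed to 1.12 to 48.2 ppm.

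A miRNA pairs with messenger RNAs mainly through its seed, bases 2 to 8 counted from the 5′ end, and represses their translation and stability. The miR-99/100 family is known for repressing the kinase MTOR. The miR-125 family comprises the vertebrate relatives of lin-4, the first miRNA described in the nematode, and is known for roles in differentiation, in blood formation and in apoptosis. In the human genome a gene of each family lies with a let-7 gene, also a regulator of differentiation, in each of 3 clusters.

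The mature sequences are given because the seed divides the members into 2 groups and because hsa-miR-99a-5p and hsa-miR-100-5p are nearly identical. They were taken from RefSeq (table of GRCh38.p14) and are written 5′ to 3′ with the seed in capitals.
hsa-miR-99a-5p: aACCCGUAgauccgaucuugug
hsa-miR-99b-5p: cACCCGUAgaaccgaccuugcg
hsa-miR-100-5p: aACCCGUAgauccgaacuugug
hsa-miR-125a-5p: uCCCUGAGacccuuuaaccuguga
hsa-miR-125b-5p: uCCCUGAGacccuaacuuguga

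The first 3 share one seed and the last 2 the other, and the seeds of the families differ at 4 of their bases. From hsa-miR-99a-5p to hsa-miR-100-5p the only difference is U16A, with positions counted from 1 at the 5′ end. From hsa-miR-99a-5p to hsa-miR-99b-5p the differences are A1C, U11A, U16C and U21C. The miR-125 members share their first 13 bases and are 3 edits apart, with lengths of 24 nt for hsa-miR-125a-5p and 22 nt for hsa-miR-125b-5p. Of the 509 listed names 416 had a RefSeq mature sequence, and among these 0 other miRNAs carried either seed. The other arms of the member hairpins were searched by name, and 0 of 6 were listed, in tables in which 12 names end in 3p.

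The loci were read on GRCh37, the build to which the authors mapped (hg19), with GENCODE 44. On chromosome 21, MIR99A (chr21:17911409-17911489, plus strand) lies in an intron of the noncoding host gene MIR99AHG, followed by MIRLET7C (chr21:17912143-17912236) and MIR125B2 (chr21:17962557-17962645), which overlap annotated exons of that gene. On chromosome 11, MIR100 (chr11:122022937-122023016, minus strand), MIRLET7A2 (chr11:122017229-122017301) and MIR125B1 (chr11:121970465-121970552) lie in introns of MIR100HG. On chromosome 19, MIR99B (chr19:52195865-52195934, plus strand) and MIRLET7E (chr19:52196039-52196117) lie in introns of SPACA6, and MIR125A (chr19:52196507-52196592) overlaps an exon of it. The clusters on chromosomes 21 and 11 span 51.2 kb and 52.6 kb, and that on chromosome 19 only 0.728 kb. Mature hsa-miR-125b-5p is encoded by both MIR125B1 and MIR125B2, so its reads cannot be assigned to chromosome 11 or 21. Chromosome 21 was gained in 1 of the 7 lines, RPE1* 21/3, and the labels name a gain of chromosome 11 or 19 in 0.

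The members together took 21.5% to 43.8% of a table's summed mean, nearly all of it as hsa-miR-100-5p. This sum covers the listed miRNAs only, few of them 3p arms, and no other small RNAs. Their summed share was 24.2% in the table of HCT116 5/4, 22.3% in that of HCT116* 8/3 c7, 28.4% for HCT116 18/3 c2 and 21.5% for HCT116* 3/3 c11. In the RPE1 tables it was 39.4% for RPE1 5/3 12/3, 31.9% for RPE1* 21/3 and 43.8% for RPE1* 7/3, so that the cell types did not overlap. The 4 members other than hsa-miR-100-5p added only 1.64% to 1.98% in any table. Within the miR-99/100 family hsa-miR-100-5p made up 93.0% to 98.6% of the signal, and within the miR-125 family hsa-miR-125b-5p made up 76.6% to 87.5%.

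**Figure D1:**
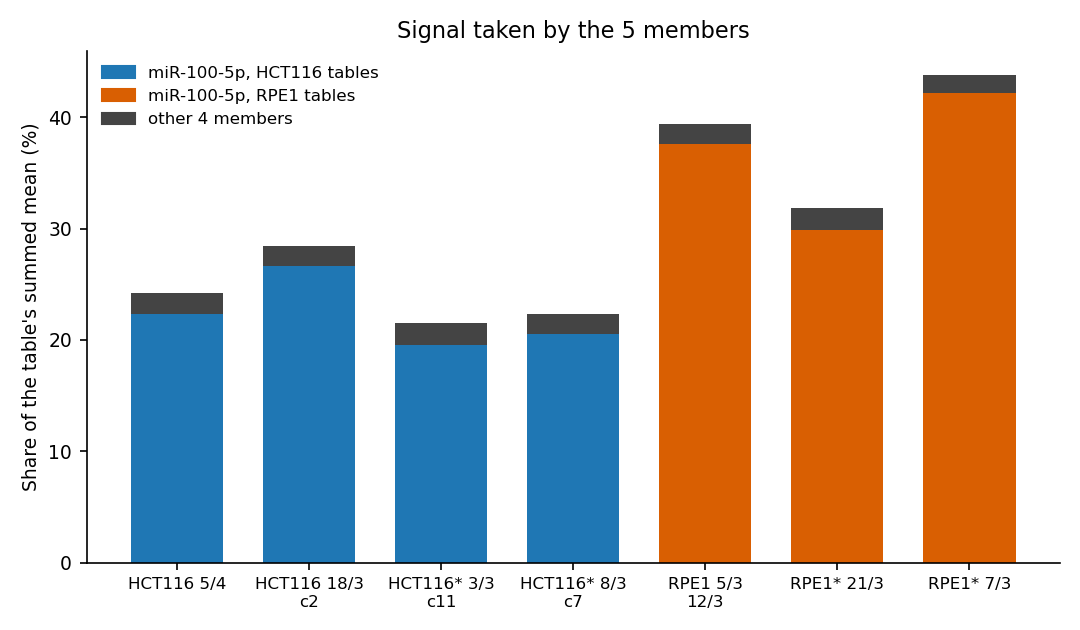
Share of each table's summed mean (%, from 0) taken by hsa-miR-100-5p (coloured, blue for HCT116 and orange for RPE1) and by the other 4 members together (dark), for the 7 tables of a line with its control. The dark part stays between 1.64% and 1.98%, whereas the total runs from 21.5% to 43.8% and is higher in every RPE1 table than in any HCT116 table.

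hsa-miR-100-5p, the dominant member, had a level of 223644 ppm in the table of HCT116 5/4, 266690 ppm in HCT116 18/3 c2, 195932 ppm in HCT116* 3/3 c11 and 205397 ppm in HCT116* 8/3 c7. It had 375539 ppm in RPE1 5/3 12/3, 299094 ppm in RPE1* 21/3 and 421390 ppm in RPE1* 7/3. It ranked second after hsa-miR-21-5p in 6 tables and first in RPE1* 7/3, and every RPE1 table lay above every HCT116 table. Its share ranged 2.15-fold over the 7 tables, where that of the median miRNA ranged 5.72-fold. However, hsa-miR-100-5p is itself a large part of the sum by which it is divided. When tables were scaled by the median of ratios to a common reference, hsa-miR-100-5p ranged 4.85-fold and the median miRNA 4.24-fold.

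Its near copy hsa-miR-99a-5p was scarce, at 266 ppm in HCT116 5/4, 861 ppm in HCT116 18/3 c2, 606 ppm in HCT116* 3/3 c11 and 618 ppm in HCT116* 8/3 c7. The level was 1050 ppm in RPE1 5/3 12/3, 1780 ppm in RPE1* 21/3 and 2463 ppm in RPE1* 7/3. These groups did not overlap either, and the 9.27-fold range from HCT116 5/4 to RPE1* 7/3 was the widest among the members, as it was by median-of-ratios scaling (22.2-fold). The level of hsa-miR-99a-5p corresponded to 0.119% of that of hsa-miR-100-5p in HCT116 5/4, to 0.280% in RPE1 5/3 12/3, to 0.301% to 0.323% in the other 3 HCT116 tables and to 0.595% and 0.585% in RPE1* 21/3 and RPE1* 7/3. As these miRNAs differ at a single base, how the counting divided reads between them is uncertain, and the part of misassigned reads was not tested.

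hsa-miR-99b-5p, which shares the same seed, showed the opposite order of the cell types on this scale, which was not kept by median-of-ratios scaling (below 0 here, 0.34 there, as log2 of RPE1 over HCT116). It had 7208 ppm in HCT116 5/4, 11534 ppm in HCT116 18/3 c2, 14056 ppm in HCT116* 3/3 c11 and 12528 ppm in HCT116* 8/3 c7. The RPE1 values were 4426 ppm in RPE1 5/3 12/3, 5816 ppm in RPE1* 21/3 and 7170 ppm in RPE1* 7/3. The lowest HCT116 table and the highest RPE1 table lay side by side, 1.01-fold apart.

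Of the miR-125 family, hsa-miR-125b-5p had 9169 ppm in HCT116 5/4, 4017 ppm in HCT116 18/3 c2, 3596 ppm in HCT116* 3/3 c11 and 3611 ppm in HCT116* 8/3 c7. It had 11185 ppm in RPE1 5/3 12/3, 9789 ppm in RPE1* 21/3 and 5493 ppm in RPE1* 7/3. HCT116 5/4 thus stood with RPE1* 21/3 and RPE1 5/3 12/3, above the other 4 tables. hsa-miR-125a-5p fell into the same 2 sets of tables, with 1623 ppm in HCT116 5/4, 1597 ppm in RPE1 5/3 12/3 and 2417 ppm in RPE1* 21/3. In the other tables it had 981 (HCT116 18/3 c2), 1100 (HCT116* 3/3 c11), 1034 (HCT116* 8/3 c7) and 1255 ppm (RPE1* 7/3).

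In both cell types hsa-miR-100-5p was highest, and its levels lay apart from those of any other member. In HCT116 hsa-miR-99b-5p came next and overlapped in range with hsa-miR-125b-5p, which lay above it in HCT116 5/4. Below these stood hsa-miR-125a-5p and then hsa-miR-99a-5p, whose ranges did not overlap. In RPE1 the ranges of hsa-miR-125b-5p and hsa-miR-99b-5p overlapped, as did those of hsa-miR-99a-5p and hsa-miR-125a-5p.

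**Figure D2:**
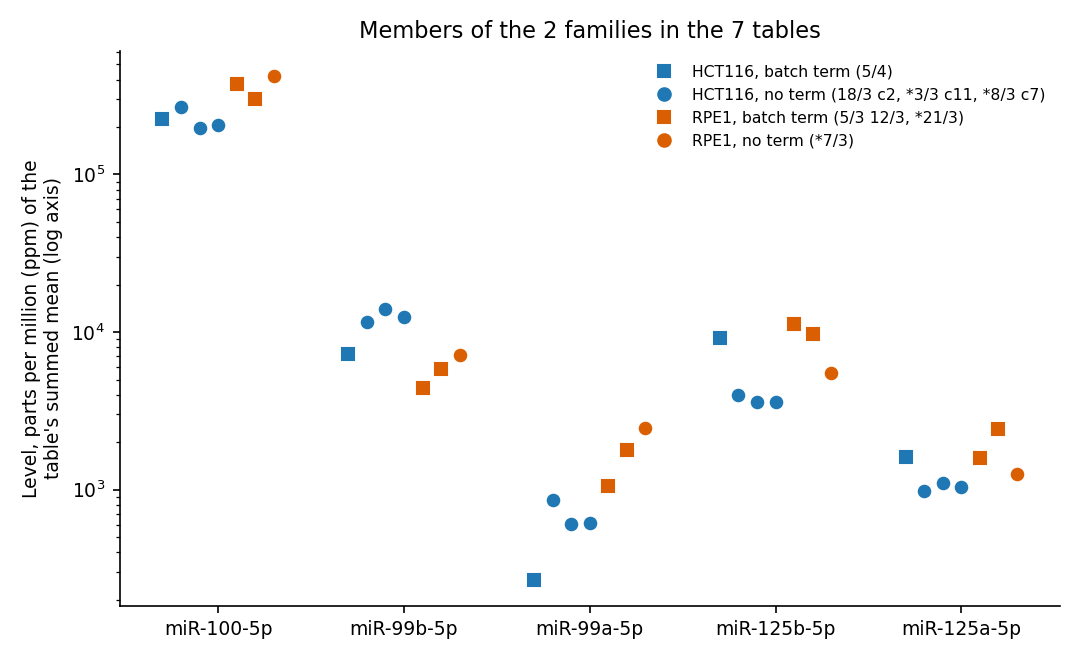
Level of each member (ppm of the table's summed mean, log axis) in the 7 tables, 1 point per table from left to right first HCT116 5/4, HCT116 18/3 c2, HCT116* 3/3 c11 and HCT116* 8/3 c7, then RPE1 5/3 12/3, next RPE1* 21/3 and last RPE1* 7/3. Blue is HCT116 and orange RPE1, and squares mark tables whose authors' fit had a sequencing batch term: hsa-miR-99a-5p, hsa-miR-99b-5p and hsa-miR-100-5p separate by colour, whereas both miR-125 members separate by symbol, on this scale. By median-of-ratios scaling the miR-125 members separate by colour and hsa-miR-99b-5p does not.

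To compare the cell types, the 3 tables that share the HCT116* libraries were averaged on the log2 scale into 1 set, leaving 2 HCT116 and 3 RPE1 sets. RPE1 over HCT116, the level was 3.90-fold for hsa-miR-99a-5p, 1.63-fold for hsa-miR-100-5p, 1.44-fold for hsa-miR-125b-5p and 1.30-fold for hsa-miR-125a-5p. HCT116 over RPE1, it was 1.68-fold for hsa-miR-99b-5p. An exact two-sided permutation test over the 5 sets gave p = 0.2 for hsa-miR-99a-5p, hsa-miR-100-5p and hsa-miR-99b-5p, p = 0.4 for hsa-miR-125b-5p and p = 0.6 for hsa-miR-125a-5p. With 5 sets 0.2 is the smallest p possible, so the design could not place any of these differences beyond the threshold of 0.05.

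The spread between pairs of single tables was wide. RPE1 over HCT116 ratios of 2 tables ran from 1.22 to 9.27 for hsa-miR-99a-5p, from 1.12 to 2.15 for hsa-miR-100-5p, from 0.599 to 3.11 for hsa-miR-125b-5p and from 0.774 to 2.46 for hsa-miR-125a-5p. The table of HCT116 5/4 moved 2 of the members by more than 1.5 times. Without it the RPE1 over HCT116 ratio became 2.43 for hsa-miR-99a-5p and 2.26 for hsa-miR-125b-5p.

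The direction of these differences was read against the other miRNAs, because the share of one miRNA depends on that of the others. Over the 205 miRNAs the median log2 difference of RPE1 minus HCT116 was −1.08, and all 5 members lay above it, with a median of 0.53. Of the 205, 22 (10.7%) were higher in every RPE1 table than in any HCT116 table, and hsa-miR-99a-5p and hsa-miR-100-5p were among them. A further 98 (47.8%) were lower in every RPE1 table, hsa-miR-99b-5p among them, so the order of hsa-miR-99b-5p was the more frequent one. The median-of-ratios scaling shifts all log2 differences up by 1.09, so that the median miRNA stood at 0.01 and the members' median at 1.62. By that scaling 43 (21%) were higher in every RPE1 table, including every member except hsa-miR-99b-5p, and 53 (25.9%) were lower. hsa-miR-99b-5p then changed direction, to 1.27-fold higher in RPE1 (p = 0.6, exact permutation test). The other 4 became 8.31-fold (hsa-miR-99a-5p), 3.47-fold (hsa-miR-100-5p), 3.07-fold (hsa-miR-125b-5p) and 2.78-fold (hsa-miR-125a-5p) higher in RPE1. Among the 205 miRNAs ordered by the difference they stood 13th, 25th, 28th and 30th from the top, with hsa-miR-99b-5p at 90th, an order that a shift of all miRNAs cannot alter.

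**Figure D3:**
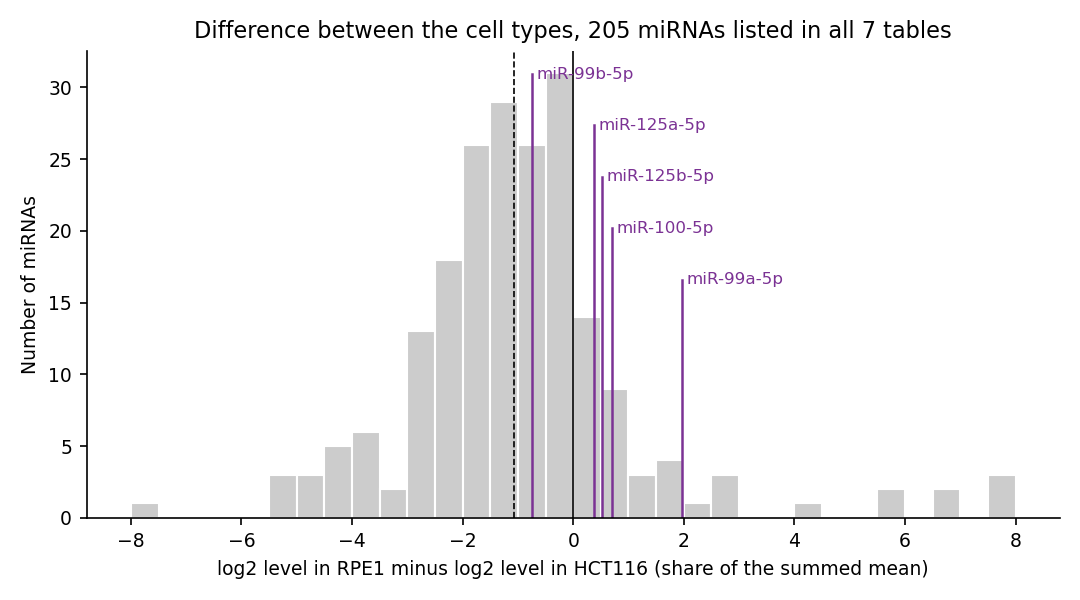
Number of miRNAs (of 205) by the log2 difference in level, RPE1 minus HCT116, as a share of the summed mean. The dashed line is the median of all (−1.08), the solid line is 0 and the purple lines are the members: 4 lie to the right of 0 and hsa-miR-99b-5p to its left, and all 5 lie to the right of the median. By median-of-ratios scaling every difference moves 1.09 to the right, which takes hsa-miR-99b-5p past 0 (0.34).

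On the scale of shares the miR-125 members separated the tables with a batch term in the authors' fit from those without, and not the cell types. By median-of-ratios scaling they separated by cell type. According to the methods, the replicate number was included for sequencing batches in RPE1* 21/3, in HCT116 5/4 and in RPE1 5/3 12/3 and not in the other 4 comparisons. It belongs to the authors' test and does not enter the mean of scaled counts, so the term serves here only to mark tables. Of the 205 miRNAs 21 (10.2%) were higher in every table with that term than in any without it, among them hsa-miR-125a-5p and hsa-miR-125b-5p, and 27 (13.2%) were lower, 0 members among them. Within HCT116 the table with the term over those without was 2.45-fold for hsa-miR-125b-5p and 1.56-fold for hsa-miR-125a-5p, and within RPE1 it was 1.91-fold and 1.56-fold. By median-of-ratios scaling these became 2.29-fold and 1.46-fold in HCT116 and 1.68-fold and 1.38-fold in RPE1. hsa-miR-99a-5p had the opposite order, with ratios of 0.387 in HCT116 and 0.555 in RPE1, as did hsa-miR-99b-5p with 0.569 and 0.708. hsa-miR-100-5p had 1.01 and 0.795.

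The comparison of cell types was therefore repeated on each side of this divide. Among tables with the term, RPE1 over HCT116 was 5.15-fold for hsa-miR-99a-5p, 1.499-fold for hsa-miR-100-5p, 1.14-fold for hsa-miR-125b-5p and 1.21-fold for hsa-miR-125a-5p. Among tables without it the values were 3.59-fold, 1.91-fold, 1.47-fold and 1.21-fold in the same order. For hsa-miR-99b-5p HCT116 over RPE1 was 1.42-fold with the term and 1.77-fold without. Each member kept its direction on both sides on this scale. Within HCT116 only the comparison of HCT116 5/4, a line received from another laboratory, had the batch term. This line and its control also lack the fluorescent histone, which the HCT116* control of the other HCT116 tables carries. The line's origin, its gained chromosome, the lack of the histone and the batch term therefore cannot be told apart. Within RPE1 a single table lacks the term, so the term cannot be told apart from the chromosomes gained by the line of that table. The part of sequencing batch in the levels of the miR-125 members was not tested.

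Ratios of 2 miRNAs within a table need no scaling between tables, and 13 were formed from members of one family or of one cluster, let-7 neighbours included. Of these, 3 did not overlap between the cell types and 6 did not overlap between tables with and without the batch term. Over all 20910 pairs of the 205 miRNAs, 52.4% separated the cell types and 27.2% separated the tables by batch term, against 3 and 6 of these 13. The division by batch term was added after seeing the levels, in which both miR-125 members separated by it on the scale of shares. All of the 6 except hsa-miR-99b-5p over hsa-let-7e-5p contain a miR-125 member, so the 6 are no independent support for that division.

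In the compact cluster on chromosome 19, hsa-miR-99b-5p over hsa-miR-125a-5p was 5.71 in RPE1* 7/3, 12.1 in HCT116* 8/3 c7, 11.8 in HCT116 18/3 c2 and 12.8 in HCT116* 3/3 c11, the tables without a batch term. It was 4.44 in HCT116 5/4, 2.77 in RPE1 5/3 12/3 and 2.41 in RPE1* 21/3, which have one. Neighbours encoded within 0.728 kb thus differed in ratio up to 5.31-fold among tables. Over the same tables the share of the median single miRNA ranged 5.72-fold, but a share, unlike a ratio, depends on the scaling. The range over all pairs of miRNAs was not computed, so whether these neighbours varied more or less than other pairs is not known. Their let-7 neighbour hsa-let-7e-5p, at 527 to 869 ppm in all tables, gave the same division from both sides. hsa-miR-99b-5p over hsa-let-7e-5p was 6.69 to 10.4 with the term and 12.1 to 16.6 without, whereas hsa-miR-125a-5p over hsa-let-7e-5p was 2.34 to 3.03 with it and 1.19 to 2.11 without.

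For the cluster on chromosome 11, hsa-miR-100-5p over hsa-miR-125b-5p was 24.4 in HCT116 5/4, 33.6 in RPE1 5/3 12/3 and 30.6 in RPE1* 21/3. It was 66.4 in HCT116 18/3 c2, 76.7 in RPE1* 7/3, 54.5 in HCT116* 3/3 c11 and 56.9 in HCT116* 8/3 c7. Mature hsa-let-7a-5p is encoded by MIRLET7A1 on chromosome 9 and MIRLET7A3 on chromosome 22 as well as by MIRLET7A2, so its reads cannot be assigned to this cluster, and RPE1* 7/3 gained chromosome 9. hsa-let-7a-5p over hsa-miR-125b-5p was 1.66 to 3.04 with the batch term and 5.43 to 6.64 without. hsa-miR-100-5p over hsa-let-7a-5p, a pair without hsa-miR-125b-5p, overlapped between these tables, with 10.0 to 20.2 and 8.56 to 13.6.

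In the cluster on chromosome 21 the ratio of hsa-miR-99a-5p to hsa-let-7c, whose genes are the nearest neighbours there, followed the cell type. It was 0.379 in HCT116 5/4, 0.615 in HCT116* 8/3 c7, 0.730 in HCT116* 3/3 c11 and 1.04 in HCT116 18/3 c2, whereas it was 2.30 in RPE1 5/3 12/3, 2.24 in RPE1* 21/3 and 2.09 in RPE1* 7/3. The level of hsa-let-7c itself overlapped, with 700 to 1005 ppm in HCT116 and 457 to 1181 in RPE1. The 3 RPE1 ratios lay close together across the tables marked by a batch term and the one that was not. hsa-miR-125b-5p over hsa-let-7c, in contrast, was 12.29 to 24.5 with the term and 3.59 to 4.84 without.

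The other ratios that separated the cell types were within the miR-99/100 family. hsa-miR-100-5p over hsa-miR-99b-5p was 31.0 in HCT116 5/4 and 13.9 to 23.1 in the other HCT116 tables, against 84.8 in RPE1 5/3 12/3, 51.4 in RPE1* 21/3 and 58.8 in RPE1* 7/3. hsa-miR-99b-5p over hsa-miR-99a-5p was 13.4 to 27.1 in HCT116 and 2.91 to 4.22 in RPE1. Among members with one seed, these 2 ratios separated HCT116 from RPE1 tables without any scaling. As they did so over all 7 tables, the same had to hold within the tables with and within those without the batch term. That is therefore no separate evidence about batch. The remaining ratio of this family, hsa-miR-100-5p over hsa-miR-99a-5p, overlapped, with 310 to 842 in HCT116 and 168 to 358 in RPE1. As 52.4% of all pairs of miRNAs separated the cell types, such a separation is not particular to this family. Within the miR-125 family hsa-miR-125b-5p over hsa-miR-125a-5p overlapped, with 3.27 to 5.65 in HCT116 and 4.05 to 7.00 in RPE1.

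**Figure D4:**
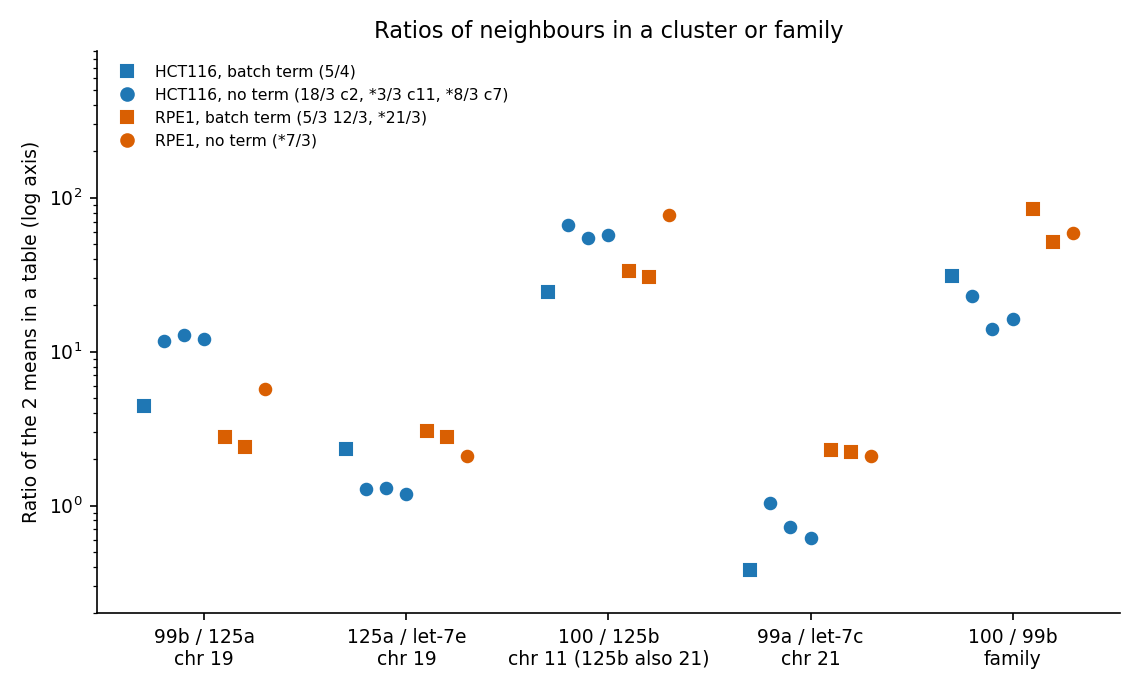
Ratio of 2 means within a table (log axis) for 3 pairs of cluster neighbours, for hsa-miR-99a-5p over hsa-let-7c and for hsa-miR-100-5p over hsa-miR-99b-5p, with colours, symbols and order of tables as in the plot of levels. The first 3 pairs separate by symbol, squares (batch term) from circles, and the last 2 by colour. For hsa-miR-99a-5p over hsa-let-7c, for instance, HCT116 had 0.379 to 1.04 and RPE1 2.09 to 2.30. Pairs that overlapped in both divisions are not drawn.

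RPE1* 21/3 is the one line with an extra copy of a member gene by its labels. In its table hsa-miR-99a-5p (1780 ppm), hsa-let-7c (796) and hsa-miR-125b-5p (9789) each lay between the values of the other 2 RPE1 tables. A line whose level followed its 3 copies would have 1.5 times the level of its control, which would place the mean of line and control at 1.25 times the control. The RPE1 tables differed by 2.35-fold for hsa-miR-99a-5p, so a change of that size was not detectable in these means.

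The 3 tables on the HCT116* libraries allow a closer comparison of lines. As their control libraries are the same and weigh as much as the line, the ratio between 2 of these tables is, on a common scale, nearer to 1 than the ratio between the lines themselves. hsa-miR-99a-5p was 1.42-fold and 1.39-fold higher in the table of HCT116 18/3 c2 than in those of HCT116* 3/3 c11 and HCT116* 8/3 c7, and hsa-miR-100-5p was 1.36-fold and 1.30-fold higher. By median-of-ratios scaling these became 1.53-fold and 1.56-fold, and 1.47-fold and 1.46-fold. hsa-miR-125b-5p was 1.12-fold and 1.11-fold higher there, and 1.21-fold and 1.25-fold by median-of-ratios scaling. Among these tables hsa-miR-99b-5p was highest in HCT116* 3/3 c11, by 1.22-fold and 1.12-fold over HCT116 18/3 c2 and HCT116* 8/3 c7, and hsa-miR-125a-5p by 1.12-fold and 1.06-fold. For the 279 miRNAs listed in all 3 tables the median ratio of highest to lowest was 1.26, so the members were close to, above or below the usual spread, and no replicate error is known for these ratios. The ratio of hsa-miR-100-5p to hsa-miR-99a-5p stayed between 310 and 333 in these tables. As these miRNAs differ at a single base, the part of misassigned reads in the level of hsa-miR-99a-5p was not tested here either. HCT116 18/3 c2 differs from the other lines by lacking H2B-GFP as well as by its gained chromosome, and these cannot be told apart.

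Likeness of pattern was described by the root mean square difference in log2 level over the 7 tables, each miRNA centred on its own mean, where 0 means the same course. The scaling of a table cancels in this difference, and 3 of the tables share libraries. Nearest to hsa-miR-100-5p were hsa-miR-27a-5p (0.26), hsa-let-7i-5p (0.28) and hsa-miR-1260b (0.31), and to hsa-miR-99a-5p hsa-miR-193a-5p (0.46), hsa-miR-1260b (0.63) and hsa-miR-4521 (0.67). For hsa-miR-99b-5p they were hsa-miR-505-5p (0.17), hsa-let-7d-5p (0.17) and hsa-miR-146b-5p (0.19), for hsa-miR-125a-5p hsa-miR-30c-5p (0.11), hsa-miR-484 (0.17) and hsa-miR-27a-5p (0.30), and for hsa-miR-125b-5p hsa-miR-628-5p (0.27), hsa-miR-15b-5p (0.31) and hsa-miR-3613-5p (0.32). The median over all other miRNAs was 0.82 to 1.65, depending on the member. Among the members themselves the miR-125 pair was most alike (0.36), followed by hsa-miR-100-5p with hsa-miR-125a-5p (0.48), whereas hsa-miR-99a-5p and hsa-miR-99b-5p were farthest apart (1.31) although they share a seed.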

How the data were processed

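Small RNA libraries (TruSeq) of 36 samples were sequenced as single reads by the authors, trimmed, cleared of adapters with cutadapt, mapped to hg19 and counted per miRBase miRNA with mirdeep2. The deposited mean is a signal, which the authors obtained by scaling counts with DESeq2 size factors and taking the mean of 6 libraries, 3 of a line and 3 of its control. The version of DESeq2 that the authors used is not given in the sources used here. The tables also hold 5 columns of the authors' own comparison (log2 fold change, its standard error, the test statistic, p-value and adjusted p-value), which were not used. A count model, planned for values of single libraries, was therefore replaced by its planned fallback, a test on means.

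Levels were computed in ppm of a table's summed mean, with no filter or pseudocount. The alternative scaling was the median of ratios to the geometric mean over the 205 miRNAs listed in all tables. Cell types were compared by an exact two-sided permutation test of mean log2 levels over 5 sets of tables that share no library. The calculation was tested on simulated data with median-of-ratios scaling, in which as many miRNAs were raised as lowered. It was not tested in this way on the scale of shares. Labels do not say whether the 3 libraries of a group came from separate cultures. Named miRNAs were the members, the let-7 miRNAs of their clusters, other hairpin arms, miRNAs with a member seed, the top miRNA of each table and the 3 miRNAs most like each member. Members, lists and tests were chosen with earlier results of these data known, and the division by batch term was added after seeing the levels. Python 3.11.15, numpy 2.4.6, pandas 2.3.3 and matplotlib 3.10.9 were used.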

Additional observations from a re-analysis of the deposited data

How the results depend on the processing

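Values come from means over 6 libraries, so depth and replicate error cannot be given for any of them, and the smallest exact p over 5 sets was 0.2. The log2 difference of RPE1 minus HCT116 kept its sign for all 5 members when low means, or hsa-miR-21-5p and the 5 members, were left out of the total. It also did so with a pseudocount of 1 or 10 ppm, with 7 tables as units and within either batch side. With 7 tables as units, within a batch side or with a table left out, hsa-miR-99a-5p, hsa-miR-99b-5p and hsa-miR-100-5p could not change sign. Their levels did not overlap between the cell types over all 7 tables. Without hsa-miR-21-5p and the members in the total, hsa-miR-99b-5p came to −0.40 with an exact p of 0.4, in place of −0.75 and 0.2. By median-of-ratios scaling the difference reversed for hsa-miR-99b-5p, to 0.34, because that scaling adds 1.09 to every miRNA. Leaving out each table in turn gave 1.28 to 2.29 for hsa-miR-99a-5p, −1.15 to −0.57 for hsa-miR-99b-5p, 0.59 to 0.84 for hsa-miR-100-5p, 0.13 to 0.71 for hsa-miR-125a-5p and 0.33 to 1.18 for hsa-miR-125b-5p. The numbers of miRNAs higher and lower in every RPE1 table were 43 and 53 by median-of-ratios scaling, 59 and 158 among tables with a batch term and 39 and 200 among those without. Each batch side has fewer tables and its own list of miRNAs (232 and 253). Over the 205 miRNAs of the main count these numbers were 44 and 148 with the term and 38 and 154 without. In all, 99 of the alternative values stayed within the limits set for them, 6 moved and 1 reversed. No paired analysis was possible because the tables hold no values of single libraries.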
